A study of Caenorhabditis elegans with 6 samples.

Results

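Neuropeptide-like protein genes (nlp genes) of Caenorhabditis elegans encode secreted precursors that are cut into short signalling peptides. The members described here are the genes whose WormBase symbol is nlp- followed by a number, without nlp-27, nlp-28, nlp-29, nlp-30, nlp-31 and nlp-34, and 65 of the 46911 gene identifiers in the count tables met that rule. RNA-seq read counts were compared between whole animals of the nmr-2(ok3324) strain (mutant) and of the wild-type strain N2 (WT), with 3 libraries per genotype. The gene nmr-2 encodes a subunit of the worm's NMDA-type glutamate receptors. All animals were grown at 20 °C on Escherichia coli OP50, synchronised by a 3 h egg lay, and collected at the L4 larval stage, whose animals hold the nervous system together with gut, skin, muscle and a developing germline. The comparison asked how loss of the receptor subunit bears on transcript levels.

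An nlp precursor enters the secretory pathway and is cut next to pairs of basic residues by proprotein convertases such as EGL-3. The carboxypeptidase EGL-21 then trims the basic residues, and many products receive a C-terminal amide before they are stored in dense-core vesicles. The released peptides act mostly on G protein-coupled receptors, often at a distance from the synapse, and in the worm they modulate sleep, movement, smell, egg laying and defecation. Most nlp genes are known from neurons, but some are expressed in the intestine or the epidermis, where a subset encodes antimicrobial peptides.

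The libraries held 21234748 to 27893186 counts in all, of which 6564 to 10301 fell on the 65 members. Scaling factors (TMM) lay between 0.986 and 1.01 in 4 libraries, and replicate 2 stood apart in both genotypes, with 1.20 in the mutant and 0.838 in WT. The targeted gene nmr-2 was barely detected, with 3, 5 and 5 mutant counts against 7, 2 and 10 WT counts (log2 fold change -0.64, SE 0.74, edgeR adjusted p = 0.66), which does not check the genotype labels; they do not state which part of the gene the allele removes. All 11 neuron markers, 4 intestine markers, 3 body wall muscle markers and 3 germline markers were detected, as a whole-animal sample would hold. In such bulk RNA, fewer cells of a type and less RNA per cell cannot be told apart.

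The members were short genes with few exons. Their merged exons had a median length of 533 bp against 1407 bp for all tested protein-coding genes, and they had a median of 3 exons against 6. Chromosome X held 19 of the 65 members (29.2%) and 13.7% of all protein-coding genes of the annotation. Of these X-linked members, nlp-45, nlp-22, nlp-23 and nlp-2 lie next to each other between 2337600 and 2344766 (WBcel235), with gaps of 3049, 302 and 988 bp. On chromosome V, nlp-25 and nlp-26 are 5042 bp apart, and nlp-9 and nlp-13 are 14185 bp apart. In 13 members the exons overlapped an exon of another gene, by 3 to 88 bp, and reads in those stretches cannot be assigned to 1 gene with certainty. For 10 members the other exon is on the opposite strand, and the strand setting of the counting is not given in the sources used here. For nlp-71, nlp-76 and nlp-78 it is on the same strand, where a strand setting would not separate the reads.

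Levels of different genes were compared as RPKM, which is CPM (counts relative to the TMM-scaled library size) divided by the merged exon length in kilobases. The 2 most abundant members stood at about the same level. The first was nlp-40, whose peptide is released by the intestine and acts through the receptor AEX-2 to trigger the expulsion step of defecation, with a mean of 148 RPKM over the 6 libraries and a range of 132 to 162. The second was nlp-24, of the YGGW peptide family and described as opioid-like, with a mean of 146 RPKM and a range of 117 to 171, and these ranges overlapped. The third, nlp-36, followed at 99.3 RPKM (89.3 to 114), below every library of nlp-24.

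A group of 3 members came next, with overlapping ranges. They were nlp-26 at 33.3 RPKM (29.2 to 39.2), nlp-33 at 30.2 RPKM (17.8 to 48.0) and nlp-20 at 28.3 RPKM (20.5 to 35.9). Of these, nlp-26 belongs to the YGGW family, and nlp-33 encodes an antimicrobial peptide of the epidermis. Every other member was below all of these in mean level, led by nlp-12 at 9.84 RPKM (4.21 to 15.2) and nlp-80 at 8.43 RPKM (7.08 to 11.2), and neighbours in the order overlapped from there on. The lowest tested members were nlp-69 at 0.866, nlp-82 at 0.760 and nlp-2 at 0.699 RPKM. In terms of reads, nlp-40 alone took 32.4% of the counts on all members, and nlp-40, nlp-24 and nlp-36 together 60.2%.

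**Figure D1:**
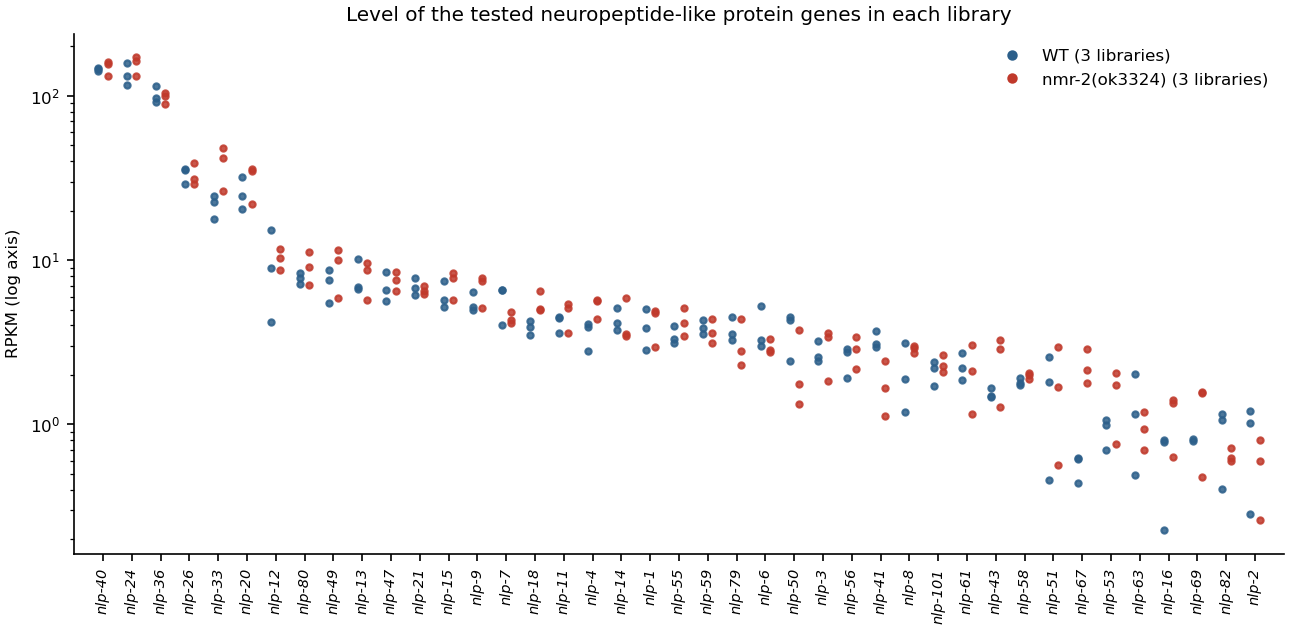
RPKM of the 41 tested members in each library on a log axis, ordered by their mean, with WT libraries in blue and nmr-2(ok3324) libraries in red; the 1 value of 0, nlp-69 in WT replicate 2, is not drawn. nlp-40, nlp-24 and nlp-36 stand above all others, and most members lie between 1 and 10 RPKM with both genotypes intermixed.

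The filter on low counts, which requires enough reads in at least as many libraries as 1 genotype has, kept 41 of the 65 members, and tests were possible for these only. A member that passed through reads in 1 genotype alone would have had to differ, so counts over the 41 describe the tested members and not the family. Of the 24 others, nlp-22, nlp-32 and nlp-39 had no count in any library. At these depths a count of 0 allows up to 3 counts per library, or 0.108 to 0.141 CPM. The remaining 21 had 2 to 52 counts over all 6 libraries.

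1 of the 41 tested members rose in nmr-2(ok3324) and 0 fell (edgeR quasi-likelihood test, Benjamini-Hochberg adjusted p under 0.05 over 13138 genes). The member that rose was nlp-67. By the same rule 2.16% of all tested genes were called, 1.79% as higher and 0.373% as lower in the mutant, so that 1 of 41 (2.44%) is near the background. Under the alternatives the share of all genes called was 3.12% with DESeq2, 1.95% with limma-voom, 1.96% with RLE size factors, 1.48% with library totals, 3.06% without the low-count filter, 2.42% with a filter of 1 CPM in 3 libraries, 0.997% with a test against a 1.5-fold change (glmTreat) and 1.08% with the replicate block. It was 1.42%, 1.84% and 1.92% without mutant replicate 1, 2 or 3, then 1.52%, 1.76% and 1.44% without WT replicate 1, 2 or 3, and 4.01% without both libraries numbered 2. The number of members called was 2 with DESeq2, without the filter, without mutant replicate 3 and without both libraries numbered 2, and 1 under each of the other settings. At an unadjusted p under 0.05 there were 2 members (4.88%), against 17.2% of all tested genes. The 0 members that fell with edgeR were also 0 with DESeq2 and with limma-voom. The median log2 fold change was 0.13 over the tested members and 0.03 over all tested genes, and 27 members (65.9%) were above 0, against 53.4% of all tested genes. The members' median was 0.024 without mutant replicate 1, 0.21 without WT replicate 1 and 0.21 without both libraries numbered 2. The median of all tested genes was 0.27 for those under 1 CPM, 0.19 for those at 1 to 10 CPM and -0.06 for those above 10 CPM. Of the tested members, 7, 28 and 6 fell in these ranges, with medians of -0.36, 0.14 and 0.12. The share above 0 also followed level, with 67.04%, 68.83% and 38.99% of all tested genes in these ranges. For the members it was 42.86%, 71.43% and 66.67%. The 28 members at 1 to 10 CPM were thus near the background of their range, and the pooled 53.4% is not matched for level.

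nlp-67 (WBGene00011227, chromosome X, 16184369 to 16185722, plus strand, WBcel235) is a member of low level, at 1.42 RPKM on average. Its reads numbered 67, 53 and 67 in mutant replicates 1, 2 and 3, against 16, 14 and 12 in WT. After scaling these were 2.38, 1.98 and 3.18 CPM against 0.689, 0.679 and 0.483 CPM, in the same order. Every mutant library was above every WT library, and the lowest mutant value was well clear of the highest WT value. The means were 2.51 ± 0.613 and 0.617 ± 0.116 CPM (SD, n = 3 each), a 4.07-fold difference (log2 fold change 2.02, SE 0.35, edgeR adjusted p = 0.0040). Under the 15 alternatives tried, the log2 fold change lay between 1.82 and 2.23 and the adjusted p between 3.1e-05 and 0.039.

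The transcript annotation of nlp-67 has 1101 bp of merged exons in 2 blocks, of which 270 bp are coding, and overlaps no exon of another gene. The nearest protein-coding genes on the right, slc-25A21 at 4134 bp and R11.3 at 11189 bp, had log2 fold changes of -0.01 (SE 0.17) and -0.28 (SE 0.51) and did not pass. On the left, F09C8.1 at 20845 bp fell, from 7.23 to 3.36 CPM (-1.11, SE 0.21, edgeR adjusted p = 0.0082), and F09C8.2 at 37347 bp did not pass (-0.10, SE 0.11). None of these 4 neighbours was higher in the mutant.

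Single markers of skin and of the molting cycle rose along with nlp-67, against 2.16% of all tested genes called and 1.79% as higher. Of 7 molting cycle markers 1 rose (mlt-8, log2 fold change 1.25, SE 0.24), and 6 were above 0, with a median of 0.56. Of all tested genes 53.4% were above 0, a share that is not matched for level, and 68.8% of those at 1 to 10 CPM. Their summed level was 37.1 to 48.8 CPM in the mutant libraries and 26.1 to 36.2 in the WT libraries. Of the 6 that did not pass, qua-1 (1.54, SE 0.45) and mlt-10 (0.56, SE 0.24) were higher in the mutant without overlap. ptr-4 (1.32, SE 0.52), bli-1 (0.39, SE 0.36) and nas-37 (0.13, SE 0.18) were higher with overlap. Only noah-1 was lower, at 2.41 against 4.60 CPM without overlap (-0.93, SE 0.25, edgeR adjusted p = 0.076). With mlt-8, the groups did not overlap in 4 of the 7 molting markers. Of all tested genes 24.4% did not overlap, and 13.4% did so with higher values in the mutant. The 4 epidermis markers found summed to 36.8 to 47.7 CPM in the mutant and 24.3 to 31.8 in WT, with 1 of 3 tested rising (sqt-3, 0.98, SE 0.20). The sum follows sqt-3, the highest of them in CPM; rol-6 was at 5.01 against 2.29 CPM, while elt-3 (log2 fold change -0.25, SE 0.17) and dpy-7, at 0.273 against 0.362 CPM, had lower means in the mutant. The 3 pharyngeal muscle markers summed to 83.3 to 101 CPM in the mutant and 63.2 to 75.6 in WT, and the 3 germline markers to 1398 to 1558 and 1715 to 1793, with 0 called in either list. All 3 pharyngeal muscle markers were higher in the mutant, 1 of them without overlap. All 3 germline markers were lower in the mutant without overlap, against 24.4% of all tested genes without overlap in either direction. No marker of these lists was at 0. The 11 neuron markers, of which 0 were called, summed to 254 to 268 CPM in the mutant and 269 to 273 in WT. Of these, snb-1 was at 128 and 147 CPM on average. Log2 fold changes were above 0 for 8 of the 11, against 53.4% of all tested genes, not matched for level. The part of these tissues in the rise of nlp-67 was not tested.

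Next in order of p came nlp-33, the epidermal antimicrobial peptide gene (chromosome V, 11147346 to 11147737). Its level was 14.4, 16.5 and 9.07 CPM in mutant replicates 1, 2 and 3, against 8.43, 6.11 and 7.73 CPM in WT. The groups did not overlap, although mutant replicate 3 was close to WT replicate 1. The means of 13.3 ± 3.84 and 7.42 ± 1.19 CPM (SD, n = 3) gave a log2 fold change of 0.85 (SE 0.21) and an edgeR adjusted p of 0.0502, which misses the threshold by a narrow margin. DESeq2 gave an adjusted p of 0.013, and edgeR gave 0.0055 once mutant replicate 3 was left out. With edgeR, leaving out any other single library gave 0.10 to 0.16. Leaving out both libraries numbered 2 gave 0.12, with a log2 fold change of 0.55. Over the alternatives that test against 0, the adjusted p ran from 0.00034 (edgeR without the low-count filter) to 0.24 (edgeR with the replicate block). The glmTreat test, against a 1.5-fold change, was not passed. Of the epidermis markers named above, sqt-3 rose and rol-6 had a higher mean in the mutant, while elt-3 and dpy-7 had lower means; their part in the level of nlp-33 was not tested. Of the 6 epidermal nlp genes that the rule leaves out, 4 were tested. Of these, nlp-29 rose (1.33, SE 0.28, edgeR adjusted p = 0.016), against 2.16% of all tested genes called. nlp-28 (0.58, SE 0.27), nlp-27 (0.10, SE 0.13) and nlp-31 (0.0041, SE 0.27) did not pass.

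**Figure D2:**
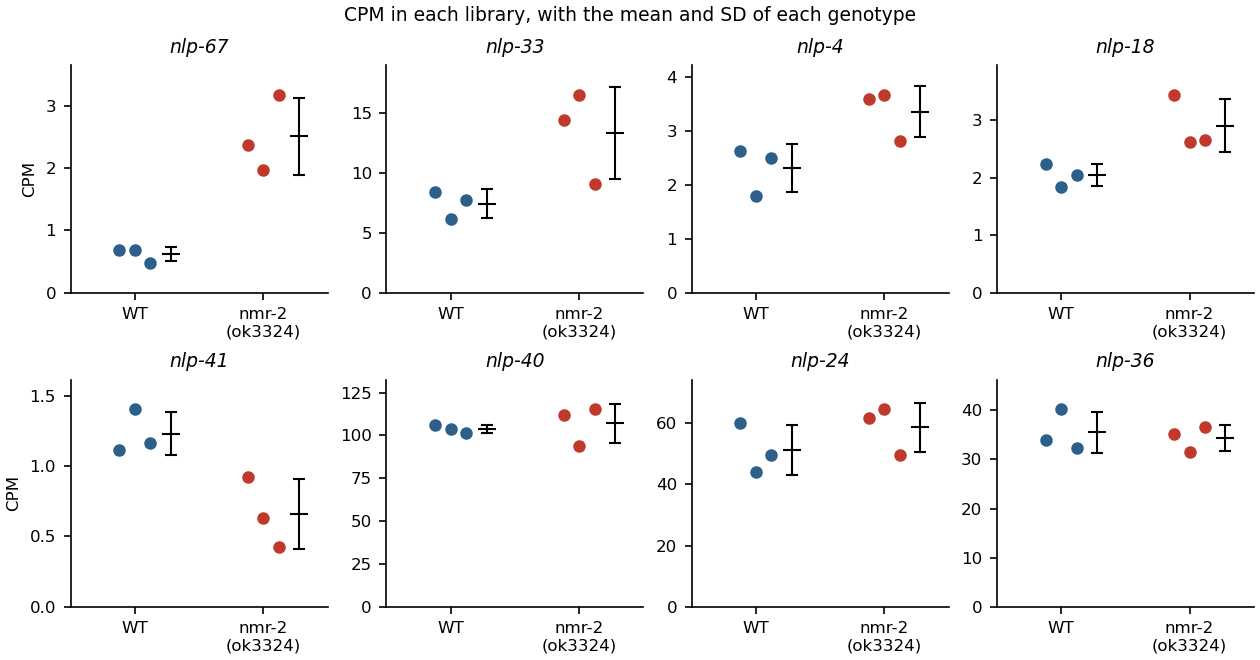
CPM of 8 members in each library, with WT in blue and nmr-2(ok3324) in red, and beside the points the mean and SD of the 3 libraries; each axis starts at 0. The mutant libraries of nlp-67 (1.98 to 3.18 CPM) lie apart from the WT libraries (0.483 to 0.689 CPM), while those of nlp-40, nlp-24 and nlp-36 overlap the WT libraries.

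The other 39 tested members had an edgeR adjusted p above 0.29. Their groups did not overlap in 3 cases, nlp-4, nlp-18 and nlp-41, which with nlp-67 and nlp-33 makes 5 of 41 members (12.2%), against 24.4% of all tested genes. nlp-4 was at 3.58, 3.66 and 2.80 CPM in the mutant and 2.63, 1.79 and 2.50 CPM in WT (0.54, SE 0.26, edgeR adjusted p = 0.30). nlp-18 was at 3.44, 2.61 and 2.66 CPM in the mutant and 2.24, 1.84 and 2.05 CPM in WT (0.51, SE 0.26, edgeR adjusted p = 0.33). For both, the gap between the groups was smaller than the range within the mutant. In the opposite direction, nlp-41 was at 0.922, 0.635 and 0.428 CPM in the mutant and 1.12, 1.41 and 1.17 CPM in WT (-0.87, SE 0.42, edgeR adjusted p = 0.30), and 8 bp of its exons overlap the gene mog-4 on the other strand.

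**Figure D3:**
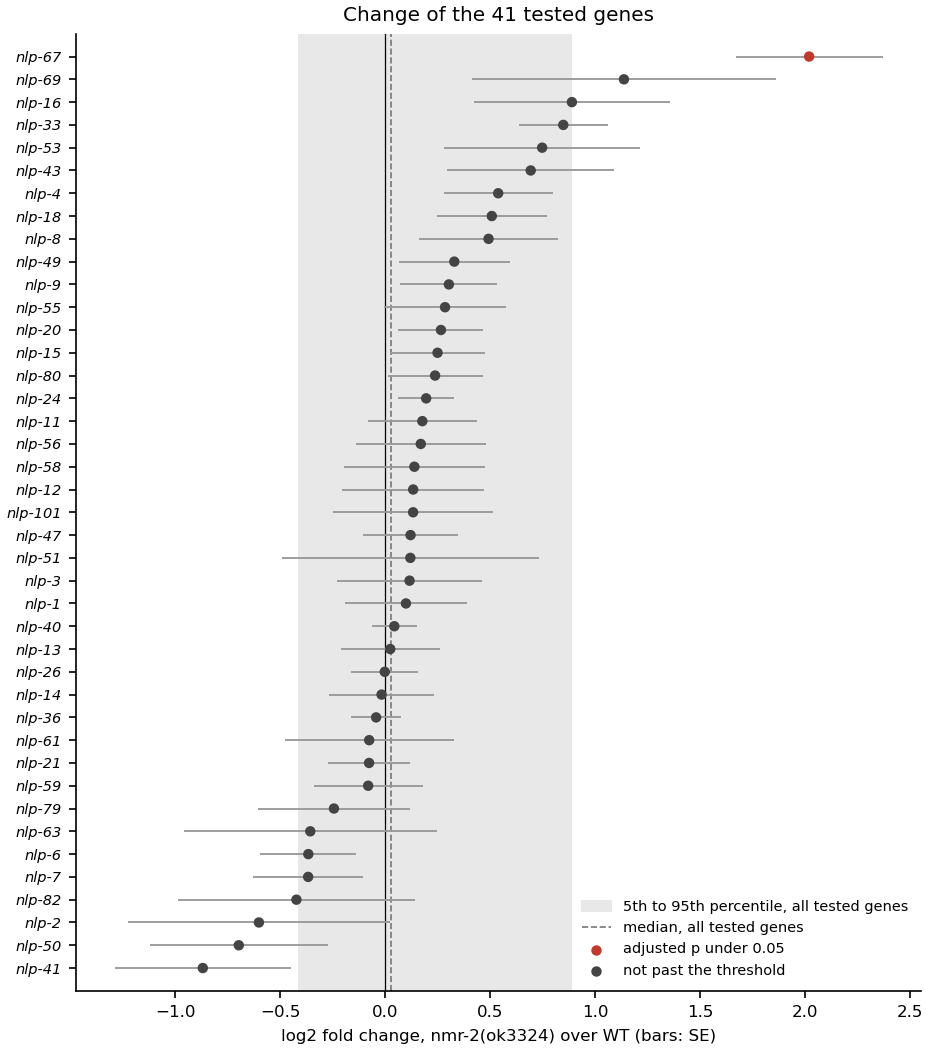
Log2 fold change of the 41 tested members, nmr-2(ok3324) over WT, with bars for the SE, over the 5th to 95th percentile of all tested genes (grey, -0.41 to 0.89) and their median (dashed, 0.03). nlp-67, in red, is the member past the threshold, and 30 of the 41 members lie within 0.5 of 0.

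The 3 most abundant members, nlp-40, nlp-24 and nlp-36, differed little between genotypes. For nlp-40 the mutant libraries gave 112, 93.9 and 115 CPM and the WT libraries 102 to 106 CPM, with WT inside the mutant range (0.04, SE 0.11, edgeR adjusted p = 0.86). For nlp-36 they gave 35.2, 31.4 and 36.6 CPM against 32.3 to 40.2 CPM (-0.04, SE 0.12). For nlp-24 they gave 61.8, 64.7 and 49.7 CPM and 60.2, 44.1 and 49.6 CPM (0.19, SE 0.13). Their standard errors were small, so that a difference of 2-fold, 1.0 on the log2 scale, lies many standard errors away from each estimate. nlp-20 was at 16.7, 10.4 and 17.1 CPM in the mutant and 11.7, 15.3 and 9.78 CPM in WT (0.27, SE 0.20, edgeR adjusted p = 0.49), with replicate 2 low in the mutant and high in WT. Without both libraries numbered 2 it was called as higher (0.65, edgeR adjusted p = 0.011). Summed over all 65 members, the level was 337 ± 25.8 CPM in the mutant and 311 ± 17.2 CPM in WT (SD, n = 3), and mutant replicate 2 was below WT replicates 1 and 2. Without nlp-40, nlp-24 and nlp-36 the sums were 137 ± 17.5 and 121 ± 11.5 CPM.

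Of the YGGW family members kept here, nlp-24, nlp-26 and nlp-33 were tested and did not pass. nlp-26 stood at 15.3, 12.2 and 11.4 CPM in the mutant and 13.9, 13.8 and 11.4 CPM in WT (0.00, SE 0.16). nlp-25 had 15 counts in all, 11 of them in the mutant libraries, and nlp-32 had none. Within this peptide family the abundant nlp-26, the neighbour of nlp-25, thus had the same mean in both genotypes, 13.0 CPM. By contrast nlp-33 had means of 13.3 CPM in the mutant and 7.42 CPM in WT. Summed over the 5 family members, the level was 85.2 ± 12.9 CPM in the mutant and 71.8 ± 9.60 CPM in WT (SD, n = 3).

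Among genes tied to sleep, nlp-8 and nlp-14 act with the ALA neuron in the sleep that follows cellular stress, and nlp-22 acts in the sleep-like quiescence at the molts. nlp-8 was at 2.52, 2.47 and 2.28 CPM in the mutant and 1.59, 2.62 and 1.01 CPM in WT (0.49, SE 0.33, edgeR adjusted p = 0.44), with a wide spread in WT that covered the mutant range. nlp-14 was at 5.99, 3.51 and 3.66 CPM in the mutant and 5.25, 4.27 and 3.86 CPM in WT (-0.02, SE 0.25). nlp-22 was not detected, and its neighbours on chromosome X were rare: nlp-45 had 18 counts over the 6 libraries, nlp-23 had 6, all in WT, and nlp-2 stood at 0.394 ± 0.194 CPM in the mutant and 0.596 ± 0.349 CPM in WT (-0.60, SE 0.62).

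Movement and arousal are served by nlp-12, a cholecystokinin-like peptide gene of the stretch-sensitive DVA neuron, and by nlp-49, whose peptide acts through the receptor SEB-3. nlp-12 was at 5.14, 4.52 and 3.85 CPM in the mutant and 3.92, 6.69 and 1.85 CPM in WT (0.13, SE 0.34). The WT libraries held both the highest and the lowest value of this gene. nlp-49 was at 6.92, 3.51 and 5.99 CPM in the mutant and 4.56, 5.24 and 3.30 CPM in WT (0.33, SE 0.26, edgeR adjusted p = 0.52).

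Smell and egg laying are represented by nlp-1, whose peptide is released by the AWC olfactory neuron, and by nlp-3 and nlp-7, which act on egg laying. nlp-1 was at 2.98 ± 0.768 CPM in the mutant and 2.78 ± 0.788 CPM in WT (SD, n = 3; 0.10, SE 0.29). nlp-3 was at 1.53 ± 0.505 and 1.42 ± 0.224 CPM (0.12, SE 0.35). nlp-7 was at 2.94, 2.50 and 2.61 CPM in the mutant and 2.45, 3.98 and 3.98 CPM in WT (-0.37, SE 0.26, edgeR adjusted p = 0.46), with WT replicate 1 below all mutant libraries.

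Relatives of peptides known from other animals did not pass either. nlp-47, related to gonadotropin-releasing and adipokinetic hormones, was at 4.54, 5.08 and 3.90 CPM in the mutant and 3.96, 3.39 and 5.07 CPM in WT (0.12, SE 0.23). nlp-58, which encodes tachykinin-like peptides, varied least of all tested members within the mutant, with 1.31, 1.34 and 1.24 CPM there and 1.25, 1.16 and 1.13 CPM in WT (0.14, SE 0.33). nlp-59, the member nearest to nmr-2 on chromosome V at 33.9 kb, was added to the named genes for its position and had 2.50 ± 0.417 CPM in the mutant and 2.65 ± 0.248 CPM in WT (-0.08, SE 0.26).

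The remaining members with small p-values were mostly rare and varied between libraries of 1 genotype. Higher on average in the mutant were nlp-16 (0.89, SE 0.47), nlp-43 (0.69, SE 0.40), nlp-53 (0.75, SE 0.47), nlp-69 (1.14, SE 0.72) and nlp-9 (0.30, SE 0.23). For nlp-16 the counts were 49, 48 and 17 in the mutant against 24, 6 and 25 in WT. For nlp-69 they were 26, 25 and 6 against 11, 0 and 12. Replicate 3 of the mutant and replicate 2 of WT were thus the low libraries of both genes. Lower on average in the mutant were nlp-50 (-0.70, SE 0.42) and nlp-6 (-0.37, SE 0.23). For nlp-50 the values were 1.60, 0.747 and 0.570 CPM in the mutant and 1.03, 1.84 and 1.93 CPM in WT, and the groups overlapped through mutant replicate 1. The highest level of nlp-6, 9.07 CPM, was that of WT replicate 2, and the other 5 libraries lay between 4.80 and 5.71 CPM.

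Members varied more between libraries of 1 genotype than most genes did. The median coefficient of variation over the tested members was 21.9% in the mutant and 19.4% in WT, against 14.6% and 13.7% over all tested genes, many of which have higher counts. The libraries did not take the low values evenly. Mutant replicate 1 held the lowest mutant value for 3 of the 41 members (7.32%), against 29.4% of all tested genes, and mutant replicates 2 and 3 did so for 18 and 20 members. In WT, replicate 3 held the lowest value for 22 members (53.7%), against 33.8% of all tested genes. Read depth was highest in mutant replicate 1, and its part in this pattern was not tested.

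Of the members that were not tested, those with the most counts were nlp-5, nlp-64 and nlp-68 with 52 each, nlp-48 with 51 and nlp-76 with 49. For nlp-48 there were 29, 15 and 0 mutant counts against 7, 0 and 0 in WT, so 1 library held most of its reads. nlp-64 had 20, 6 and 12 mutant counts against 6, 2 and 6 in WT, and relative to depth the ratio was 2.45 (exact 95% interval, 1.30 to 4.90). This ratio was 0.663 (0.364 to 1.19) for nlp-5, 0.904 (0.504 to 1.62) for nlp-68 and 1.43 (0.777 to 2.68) for nlp-76, which shares 67 bp of exon with nhr-17. Intervals of this kind cover counting error only, and not the spread between libraries, which for nlp-48 is plain from its counts. The interval left out 1 for 7 of the 24 members not tested. Besides nlp-48 and nlp-64 these were nlp-23, nlp-46, nlp-66, nlp-70 and nlp-81, named after their values were seen and all with more counts in WT. The share over all genes not tested was not computed, so this count has no background to be read against. For nlp-70 the mutant libraries had 2, 3 and 6 counts and the WT libraries 9, 2 and 21, and for nlp-81 they had 9, 0 and 2 counts and 5, 17 and 9, with overlapping groups in both.

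The genes listed for peptide processing and dense-core vesicles, peptidase genes among them, were all tested. Of these, 0 of 21 rose and 0 fell (edgeR), against 2.16% of all tested genes called, and 0 were called by DESeq2 or limma-voom. At an unadjusted p under 0.05 there were 4 of 21, near the 17.2% of all tested genes. Their median log2 fold change was 0.18 against 0.03 for all tested genes, with 18 of 21 (85.7%) above 0, against 53.4% of all tested genes. These pooled values are not matched for level, since the list holds genes on both sides of 10 CPM. Of all tested genes, 68.8% of those at 1 to 10 CPM and 39.0% of those above 10 CPM were above 0. The medians of these ranges were 0.19 and -0.06. The smallest p-values belonged to unc-104, the kinesin that carries synaptic and dense-core vesicles, at 4.29, 7.06 and 5.13 CPM in the mutant and 3.70, 2.42 and 3.98 CPM in WT (0.70, SE 0.26, edgeR adjusted p = 0.19). They were followed by nep-2, a neprilysin peptidase gene (0.39, SE 0.14, edgeR adjusted p = 0.20), and by rund-1 and ric-19, which act in dense-core vesicle maturation (0.76, SE 0.30, and 0.82, SE 0.38). The main processing enzymes had smaller differences, with 0.25 (SE 0.15) for the convertase gene egl-3 and 0.10 (SE 0.16) for the carboxypeptidase gene egl-21. Without both libraries numbered 2, egl-21 was called as higher (0.42, edgeR adjusted p = 0.026).

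Receptors with a known nlp ligand were rare transcripts, and 8 of 11 could be tested. The list was not limited to receptors whose ligand gene is among the 65 members. With edgeR 0 rose and 0 fell, against 2.16% of all tested genes called, and 0 were called by DESeq2 or limma-voom. At an unadjusted p under 0.05 there were 2 of 8, against 17.2% of all tested genes. The median log2 fold change was -0.29, against 0.03 for all tested genes, and 3 of 8 (37.5%) were above 0, against 53.4%. These pooled values are not matched for level, since every tested receptor gene averaged under 10 CPM in both genotypes. Of all tested genes, 67.04% of those under 1 CPM and 68.83% of those at 1 to 10 CPM were above 0. The medians of these ranges were 0.27 and 0.19. npr-11, the receptor gene for the nlp-1 peptide, was at 0.390, 0.336 and 0.665 CPM in the mutant and 1.08, 1.55 and 0.604 CPM in WT (-1.22, SE 0.50, edgeR adjusted p = 0.24), so the groups overlapped through mutant replicate 3 and WT replicate 3. sprr-2, a receptor gene for myoinhibitory-like peptides, was at 1.67, 3.32 and 2.09 CPM in the mutant and 3.74, 3.93 and 3.42 CPM in WT (-0.64, SE 0.28, edgeR adjusted p = 0.26), without overlap. The other named receptor genes were trhr-1, for a thyrotropin-releasing hormone-like peptide (0.65, SE 0.42), and npr-35 (-0.57, SE 0.58).

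**Figure D4:**
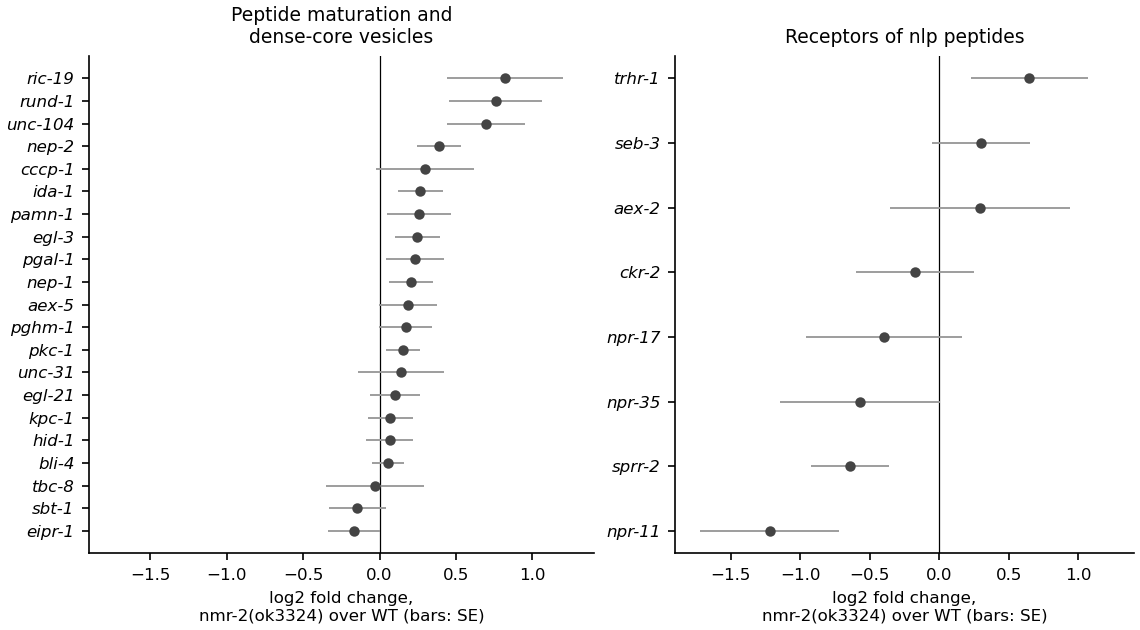
Log2 fold change, nmr-2(ok3324) over WT, with bars for the SE, of the 21 peptide maturation and dense-core vesicle genes (left) and of the 8 tested receptor genes (right). The maturation and vesicle genes lie mostly above 0 (18 of 21) and the receptors on both sides, and none passed the threshold in the fit with all 6 libraries. Over all tested genes the share above 0 varied with level, at 68.8% for 1 to 10 CPM and 39.0% above 10 CPM.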

How the data were processed

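RNA-seq was done on 3 libraries each of nmr-2(ok3324) and WT animals. The authors deposited unnormalized whole-number counts per gene. Per the submitters' processing notes, HTSeq and DESeq2 were used (no versions), with aligner, build, annotation and strand setting not given in the sources used here. Of 46911 identifiers, 44059 had a symbol. Coordinates and lengths came from the WBcel235 annotation of Ensembl release 115, joined by identifier, and protein and promoter sequences were not used here.

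The test was that of edgeR 4.0.16 (R 4.3.3): filterByExpr by genotype with nmr-2 kept (13138 genes), TMM scaling, and robust quasi-likelihood testing with Benjamini-Hochberg adjustment at 0.05. A gene is said to have risen or fallen only past it. The SE is the absolute log2 fold change divided by the square root of F. The labels do not say whether libraries are separate cultures: p-values reflect library spread that may be purely technical. Libraries of 1 genotype differed beyond sampling noise (chi-square per degree of freedom 9.59 to 42.0). Ratios of summed counts have 95% exact binomial intervals. The edgeR step was tested on simulated data, where it recovered 39.1% of 1.5-fold, 74.6% of 2-fold and 95.4% of 4-fold changes. These shares are over genes of all levels and were not computed for the members. Alternatives used DESeq2 1.42.0 and limma 3.58.1 (voom), other scalings and filters, glmTreat, a block and left-out libraries.

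Named were called members, the 15 tested members with the smallest p, the 8 highest and 3 lowest by RPKM, role groups, the 5 members not tested with the most counts, those whose call changed under an alternative, and the 4 smallest p of each pathway list. Genes named outside this rule include nlp-59, the neighbours of nlp-67, the cell type and molting markers, nlp-27, nlp-28, nlp-29, nlp-31 and those said to be chosen by value. They also include egl-3, and members named for their position, an exon overlap or a lack of counts (nlp-13, nlp-39, nlp-45, nlp-71 and nlp-78). The members and lists were chosen with earlier results of these data known.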

Additional observations from a re-analysis of the deposited data

How the results depend on the processing

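nlp-67 kept its direction and its call under all 15 alternatives. The number of nlp genes that rose was 2 with DESeq2, 2 without the low-count filter and 2 without both libraries numbered 2, and 1 to 2 when 1 library was left out; the second gene was nlp-33 (0.81 with DESeq2, 0.84 without the filter, 1.05 without nmr-2(ok3324) replicate 3), or nlp-20 (0.65) without both libraries numbered 2. There, 1 maturation gene rose too (egl-21, 0.42). The number of nlp genes that fell was 0 under each alternative. With library totals alone the median log2 fold change was 0.29 for the tested nlp genes and 0.20 for all tested genes. The median of all tested genes was -0.0047 with DESeq2, -0.0049 with RLE factors, 0.047 without the filter, 0.010 without both libraries numbered 2 and 0.0012 to 0.039 with 1 library left out; that of the tested nlp genes was then 0.024 to 0.21.

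The sign of small differences turned in genes that passed under none of these settings, apart from egl-21. With library totals alone these were nlp-36 (0.13), nlp-26 (0.17) and nlp-14 (0.14), with limma-voom nlp-26 (0.0050), with a filter of 1 CPM in 3 libraries nlp-26 (0.0093), and without both libraries numbered 2 nlp-36 (0.12), nlp-26 (0.085), nlp-14 (0.099), nlp-3 (-0.062) and nlp-47 (-0.095). With 1 library left out the log2 fold change ran from -0.016 to 0.12 for nlp-40, -0.12 to 0.047 for nlp-36, -0.14 to 0.078 for nlp-26, -0.24 to 0.64 for nlp-12, -0.32 to 0.12 for nlp-14, -0.10 to 0.31 for nlp-1, -0.060 to 0.35 for nlp-3, -0.0092 to 0.28 for nlp-47 and -0.062 to 0.27 for egl-21. The causes were not tested.

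Deviations of same-numbered libraries were not positively correlated beyond 0.1 (0.00077, -0.28 and -0.10), and those of differently numbered libraries ran from -0.15 to 0.23. With 3 libraries per genotype these values cannot decide whether the numbers pair the samples. With the replicate block 142 genes were called in all against 284, and of the nlp genes 1 rose (nlp-67, 2.00, edgeR adjusted p = 0.039) and 0 fell. By coding length, taken from the WBcel235 annotation, 7 of the 8 most abundant members were the same. Depth limits what can be said of the 24 members not tested.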
